A study of Mus musculus with 4 samples.

Results

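In control P19 cells, 436 genomic regions were called with the S9.6 antibody that were called in neither of the Ube2t knockdown libraries. The regions were chosen by whether a peak was called, a measured value, by merging the called S9.6 intervals of the 3 antibody libraries wherever intervals touched or overlapped, then keeping each merged region that held an interval of the control library, none of either knockdown library, and no overlap with an interval called without antibody. Of 2773 merged S9.6 regions, 2329 were free of no-antibody intervals, and the 436 control-only regions were 18.7% of these. Before the no-antibody list was applied there were 454 control-only regions, and 18 of them overlapped a no-antibody interval. Calling in the 3 lists chose these regions, so their presence in one list and absence from the others is the rule itself and not a finding.

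S9.6 is a monoclonal antibody that binds RNA:DNA hybrids, the paired part of an R-loop, in which nascent RNA anneals to its template and leaves the other DNA strand single. R-loops are known to form at CpG-rich promoters, at gene ends and in repeated sequence, and can block replication forks. In CUT&Tag a transposase tethered to the bound antibody cuts and tags nearby DNA, so that piled-up fragments mark bound sites. UBE2T is the ubiquitin-conjugating enzyme that works with the Fanconi anaemia core complex to ubiquitinate FANCD2 and FANCI.

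P19 is a mouse embryonal carcinoma cell line. The control library (shCtrl) came from cells labelled wild type that had received a control adenovirus, and the knockdown libraries came from cells given 1 of 2 hairpin adenoviruses against Ube2t (shUbe2t #1 and shUbe2t #2). The library without primary antibody came from cells with the control adenovirus, so adenovirus was common to all 4 libraries, and the series asks what part UBE2T plays in resolving R-loops. Peak lists hold no transcript levels, so neither the knockdown nor the cell type could be checked against its markers. No library treated to remove RNA:DNA hybrids was analysed here, and the regions are S9.6-called regions, not proven R-loops.

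Each condition was measured in 1 library, so no test between conditions was made, and the exact 95% binomial intervals given here cover counting error among regions only. The shCtrl, shUbe2t #1, shUbe2t #2 and no-antibody lists held 1263, 1519, 1640 and 516 distinct intervals. The lowest local background in each list, which follows sequencing depth, put the libraries at 92.2%, 93.6% and 58.7% of the depth of shCtrl, in the order shUbe2t #1, shUbe2t #2 and no antibody. A region not called in a list has no value there. The same rule turned to the other libraries gave 586 regions in shUbe2t #1 only and 679 in shUbe2t #2 only, and 210 regions free of no-antibody intervals were called in all 3 S9.6 lists.

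The control-only regions with the highest folds that reached a promoter lay at Nr6a1, Wasf1, Clcn3, Mcee and Myo6, and the sequences before these starts are shown as the promoters that the strongest such regions reached. The summit lay inside the printed bases at Clcn3 and outside them at Nr6a1, Wasf1, Mcee and Myo6. Ccdc8, chosen after its values were seen, is added as the promoter with the lowest CpG content relative to its base composition. The sequences are from RefSeq on GRCm38.p6, the same build as mm10, and run 5′ to 3′ along the strand of the gene through the bases before the listed start, leaving out bases inside an annotated gene. Capitals mark 4 motifs searched on both strands. The CCAAT box was searched as ATTGG and its complement. The GC box was searched as GGGCGG and its complement. A TATA box was searched as TATAAA. The core that ETS factors bind was searched as CCGGAAG.
Nr6a1, chr2:38926462-38926711, minus strand: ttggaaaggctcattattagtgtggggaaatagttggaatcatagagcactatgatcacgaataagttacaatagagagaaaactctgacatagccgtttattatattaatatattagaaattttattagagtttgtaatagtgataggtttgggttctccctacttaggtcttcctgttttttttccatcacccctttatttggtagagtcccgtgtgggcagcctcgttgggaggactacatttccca
Wasf1, chr10:40883284-40883479, plus strand: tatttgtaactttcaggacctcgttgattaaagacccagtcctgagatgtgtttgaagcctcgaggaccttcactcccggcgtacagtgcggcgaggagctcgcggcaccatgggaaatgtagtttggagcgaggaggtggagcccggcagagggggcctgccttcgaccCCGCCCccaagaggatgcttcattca
Clcn3, chr8:60983318-60983561, minus strand: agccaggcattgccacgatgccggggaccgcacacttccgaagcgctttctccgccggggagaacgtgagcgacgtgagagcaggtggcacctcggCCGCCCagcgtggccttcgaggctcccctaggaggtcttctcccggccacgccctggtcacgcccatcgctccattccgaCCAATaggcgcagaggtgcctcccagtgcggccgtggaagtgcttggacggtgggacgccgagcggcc
Mcee, chr7:64392372-64392621, plus strand: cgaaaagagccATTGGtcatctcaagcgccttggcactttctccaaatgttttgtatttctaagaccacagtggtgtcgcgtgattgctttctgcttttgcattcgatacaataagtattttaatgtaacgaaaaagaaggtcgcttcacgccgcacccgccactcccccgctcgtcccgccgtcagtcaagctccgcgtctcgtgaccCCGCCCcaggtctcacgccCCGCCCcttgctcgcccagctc
Myo6, chr9:80164784-80164975, plus strand: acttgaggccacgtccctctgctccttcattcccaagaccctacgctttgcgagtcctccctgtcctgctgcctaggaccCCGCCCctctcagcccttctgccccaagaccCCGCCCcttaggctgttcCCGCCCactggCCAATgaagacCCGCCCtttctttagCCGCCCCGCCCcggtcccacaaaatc
Ccdc8, chr7:16993652-16993901, plus strand: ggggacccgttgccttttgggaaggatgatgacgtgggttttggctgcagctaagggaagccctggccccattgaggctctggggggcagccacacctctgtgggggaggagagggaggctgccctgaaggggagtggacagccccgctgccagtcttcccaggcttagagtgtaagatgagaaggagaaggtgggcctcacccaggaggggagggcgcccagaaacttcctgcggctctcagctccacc

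The 6 upstream sequences differed widely in composition. The run before Nr6a1 held 4 CpG dinucleotides in 250 bases, none of the 4 marked motifs, and long stretches of a and t. The 244 bases before Clcn3 held 26 CpG, 1 GC box and 1 CCAAT box. The 192 bases before Myo6 held 10 CpG and a row of GC boxes, of which some overlap. The run before Ccdc8 held 5 CpG and none of the marked motifs. In the 300-base windows of the table (250 bases before the start to 50 after it), the GC content was 42.3% at Nr6a1, 59.0% at Wasf1, 68.7% at Clcn3, 56.3% at Mcee, 68.3% at Myo6 and 63.7% at Ccdc8.

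The control-only regions were narrow and low. The fold is the authors' enrichment of a summit over its local background, and it ran from 1.60 to 8.78 with a median of 4.32. The median width was 216 bp, 166 of the 436 regions (38.1%) had a width of exactly 200 bp, and 434 had a single summit. The number of fragments stacked at a summit, recovered from the deposited fold and p, had a median of 12 with quartiles of 10 and 15. A pileup of 8 to 12 fragments was found in 227 regions (52.1%). The deposited −log10 q was under 2 in 111 regions (25.5%) and at least 5 in 61 (14%). Narrow width and low fold were not particular to the control-only class. Regions in shUbe2t #1 only and shUbe2t #2 only had median widths of 236.5 and 221 bp. A width of exactly 200 bp was found in 29.4% and 35.3% of them, and a single summit in 99.5% and 99.1%. Their median folds lay between the control-only quartiles of 3.87 and 4.93. Regions of all 3 lists were wider, with a median of 446.5 bp.

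Most of the control-only summits lay close to the smallest pileup that the knockdown lists could have called. When the shCtrl pileup was scaled to the depth of the knockdown library, it reached the smallest pileup callable at the same background in shUbe2t #1 for 369 of 436 regions (84.6%) and in shUbe2t #2 for 372 (85.3%). The scaled pileup exceeded that smallest value by over 1.5 times in both libraries for 41 regions (9.40%). The lower 95% Poisson bound of the pileup reached the smallest callable value in both for 18 regions (4.13%). For the shallower no-antibody library the scaled pileup reached the smallest callable value in 111 regions (25.5%), and its lower bound did so in 2. These margins use the shCtrl pileups that chose the regions and leave out counting error in the knockdown libraries, so they describe the regions and show no difference between libraries.

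**Figure D1:**
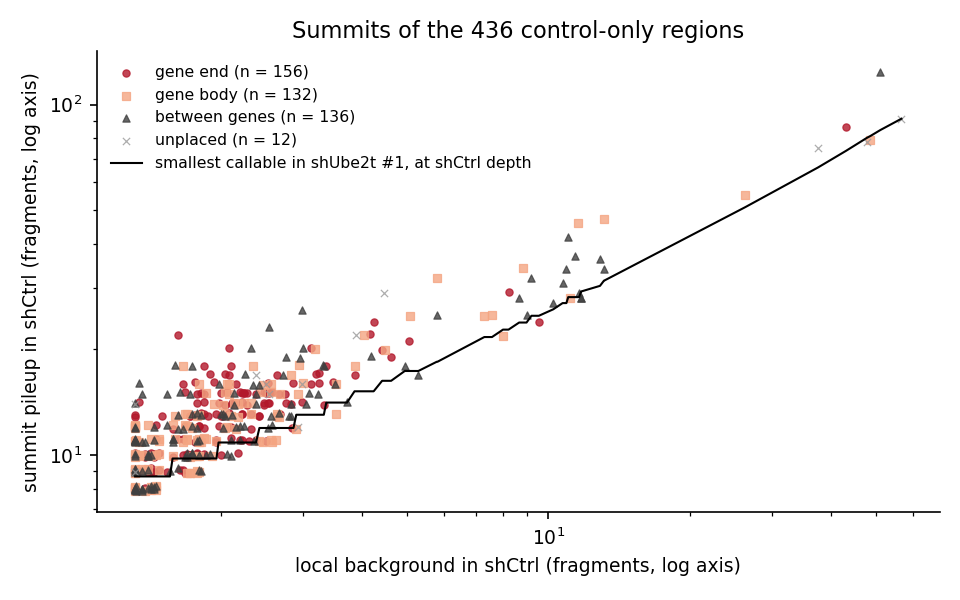
Summit pileup against local background in shCtrl for the 436 control-only regions, both in fragments on log axes, with symbols for location and a line for the smallest pileup callable in shUbe2t #1, set to the depth of shCtrl. Most points sit just above the line, with a median pileup of 12, and the highest pileup of 124 lies at a high background.

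The 18 regions whose lower bound reached the callable value in both knockdown libraries had low or high backgrounds. With backgrounds under 3, the named ones were Gm52385, Cmtm6, Nr6a1, Wasf1 and LOC115488029. With backgrounds from 4.24 to 51.0, they included regions in Sfi1, which encodes a centrosomal protein, in Tmem267, in the pseudogene Speer8-ps1, and at a pair of transfer RNA genes. The highest fold of all, 8.78, was at chr19:57926472-57926673, with 22 fragments over a background of 1.62. This region lay inside Atrnl1, which encodes an attractin-like membrane protein, 363 bp from the start of the predicted long noncoding RNA gene Gm52385, and 186661 bp from the nearest knockdown interval. The highest pileup of a region of low background was 26 over 2.98, at chr2:179246956-179247197 between genes, with a fold of 6.78 and the nearest knockdown interval 978598 bp away.

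The control-only regions were divided almost evenly among 3 kinds of location, while regions called in a knockdown library alone were mostly at gene ends. Gene-end regions were those at most 1000 bp from the first or last base of any annotated gene, gene-body regions were the remaining ones that overlapped a gene, and all others were between genes. Of the 424 regions on assembled chromosomes, 156 lay at gene ends (36.8%, exact 95% interval 32.2 to 41.6), 132 in gene bodies (31.1%, 26.8 to 35.8) and 136 between genes (32.1%, 27.7 to 36.8). The gene-end share was 62.7% (58.6 to 66.6) in shUbe2t #1 only, 64.4% (60.7 to 68.1) in shUbe2t #2 only and 61.6% (54.5 to 68.3) in regions of all 3 lists. The share between genes was 15.7%, 16.1% and 16.3% in these 3 classes. Intervals of the control-only class did not overlap those of the other classes for gene ends or for regions between genes. Location was not used to choose the regions, and the part of the genome that each kind of location takes up was not taken into account. Regions shared by both knockdown lists (224), by shCtrl and shUbe2t #1 (82) or by shCtrl and shUbe2t #2 (112) were left out of this comparison. With a −log10 q of at least 5 required in all 3 lists, the gene-end share was 40.2% of 102 control-only regions, 68.8% of 192 and 68.4% of 250 regions in shUbe2t #1 only and shUbe2t #2 only. Weaker knockdown intervals are dropped by this filter as well, so many of the 102 regions were merged with a knockdown interval in the deposited lists.

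**Figure D2:**
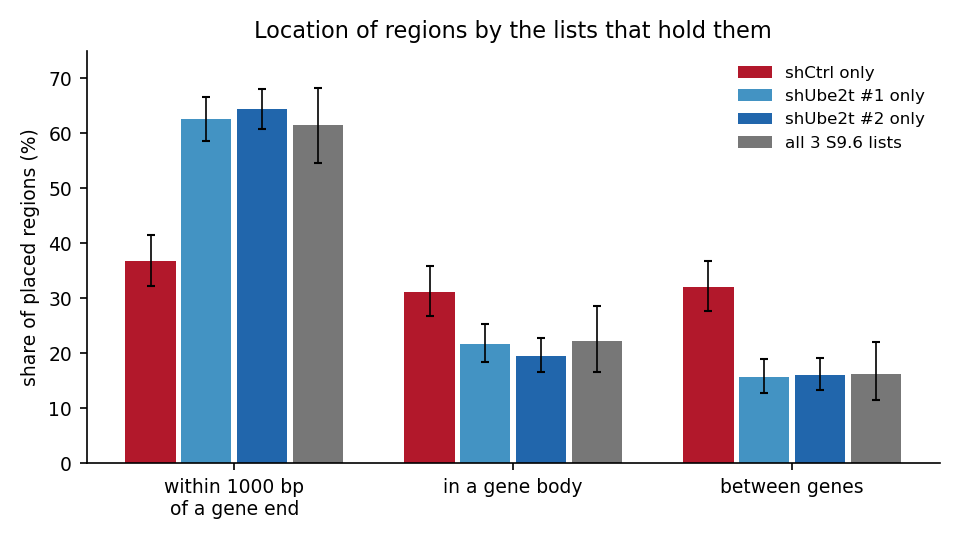
Share of placed regions (percent) at gene ends, in gene bodies and between genes, for regions called in shCtrl only (n = 424), shUbe2t #1 only (n = 581), shUbe2t #2 only (n = 672) and all 3 S9.6 lists (n = 203), with exact 95% binomial intervals as bars. The control-only bars are near a similar height in all 3 locations, while the other classes stand at 61.6% to 64.4% at gene ends.

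Gene starts with a known strand showed the same difference more finely. Of 412 control-only regions on chromosomes with listed starts, 62 (15%, 11.7 to 18.9) covered a start, 96 (23.3%, 19.3 to 27.7) came within 250 bp of one and 119 (28.9%, 24.6 to 33.5) within 1000 bp. Within 1000 bp, the shares were 57.0% (52.8 to 61.2) in shUbe2t #1 only, 59.4% (55.5 to 63.2) in shUbe2t #2 only and 52.6% (45.3 to 59.8) in regions of all 3 lists. The median distance to a start was 12014.5 bp in the control-only class, against 226, 179 and 323 bp. Of the control-only regions at gene ends, 105 of 150 (70.0%) were within 1000 bp of a listed start, against 81.4%, 83.3% and 80.3% in the other classes. The remaining gene-end regions lay farther from any listed start, and which end of the gene they were at was not determined. Among the 119 regions near a start, the summit lay downstream of it in 47 (39.5%, 30.7 to 48.9), against 33.1%, 31.2% and 26.5%, and these intervals overlapped.

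**Figure D3:**
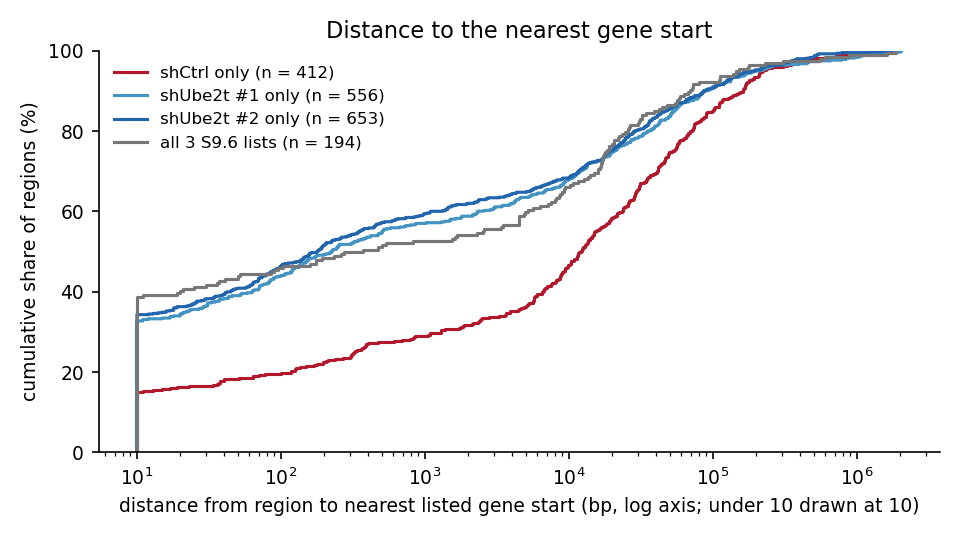
Cumulative share of regions (percent) by distance to the nearest listed gene start (bp, log axis, distances under 10 drawn at 10), 1 line per class. The control-only line is the lowest from 10 bp to beyond 10000 bp and reaches 28.9% at 1000 bp, where the other lines are at 52.6% to 59.4%.

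Within 1000 bp of a start, the highest folds outside Gm52385 (8.78) and LOC115488029 (6.21) were at the 5 genes whose promoters are shown. At Nr6a1, which encodes the orphan nuclear receptor GCNF that represses Pou5f1 during differentiation, 20 fragments lay over a background of 2.08, with the summit 39 bp after the start shown above. At Wasf1, which encodes the actin regulator WAVE1, the summit held 18 fragments over 1.84 and lay 6 bp before the start. This region is shared with Cdc40, a splicing factor gene read from the opposite strand. At Clcn3, which encodes a chloride-proton exchanger of endosomes, 14 fragments lay over 1.34, with the summit 80 bp before the start. At Mcee, which encodes methylmalonyl-CoA epimerase, 16 fragments lay over 1.66, and the divergent neighbour Mphosph10 encodes a component of the U3 snoRNP. At Myo6, which encodes an actin motor that moves toward the minus end, the summit of 18 fragments over 2.1 lay 367 bp before the listed start. The nearest knockdown intervals were 264117 bp from the Nr6a1 region, 624490 bp from Wasf1, 607656 bp from Clcn3, 84930 bp from Mcee and 1060205 bp from Myo6.

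Other high folds at gene ends included 2 regions at ribosomal protein genes. Of 416 genes gathered by a ribosomal protein name pattern, 2 held a region (0.481%, against 0.713% of all placed genes). The region at chr15:5116339-5116576 (fold 5.92, 17 fragments) lay at an end of Card6 and 37 bp from the start of Rpl37, a ribosomal protein gene. The region at chr9:64179423-64179622 (fold 5.84, 17 fragments) lay at the ends of Rpl4, another ribosomal protein gene, and of Snapc5, which encodes a subunit of the complex that activates snRNA genes. At Hdlbp and Septin2, a divergent pair that encodes the RNA-binding protein vigilin and a septin, 16 fragments lay over 1.94, and a knockdown interval lay 215 bp away. At Stt3a, which encodes a catalytic subunit of the oligosaccharyltransferase, 15 fragments lay over 1.82. Cox18, which encodes an assembly factor of cytochrome c oxidase, had a fold of 6.16, and Bicdl1, which encodes a dynein adaptor, 5.60.

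In all, 22 of the 119 regions near a start (18.5%, 12 to 26.6) lay between divergently read genes, against 21.5%, 21.4% and 22.5% in the other classes, and these intervals overlapped. Further pairs were Nln and Sgtb (fold 5.33), Rnft2 and Spring1 (4.93), Hs2st1 and Selenof (4.86), Nop14 and Grk4 (4.51), Swi5 and Golga2 (4.36), Pgm3 and Rwdd2a (4.05), and Emc6 and Tax1bp3 (3.99). At such a site the lists, which carry no strand, do not say which of the genes the signal belongs to.

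The 121 starts within 250 bp of a control-only region belonged to 111 genes. Most windows at these starts were rich in CpG for their base composition. Windows of neighbouring starts can overlap and share bases, so the intervals given for windows are likely too narrow. A CpG observed over expected ratio of at least 0.6 was found in 104 (86.0%, 78.5 to 91.6), against 47.7% of all 21262 protein-coding windows and 35.8% of all 32851 windows in the table. The shares were 82.0%, 83.2% and 84.0% at starts near regions of shUbe2t #1 only, shUbe2t #2 only and all 3 lists, so in this property the promoters of the classes overlapped. The median GC content was 64.3% with a range of 40% to 79.3%, against 56.3% over the protein-coding windows. In the window's bases after the start, G exceeded C in 90 of 121 (74.4%, 65.6 to 81.9), against 59.2% of protein-coding windows. The other classes had 69.2% (64.3 to 73.9), 67.5% (63.0 to 71.8) and 64.1% (55.3 to 72.3), intervals that overlap that of the control-only class. More G than C on the coding strand is known to favour R-loops.

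Shares of windows with a short motif are given for the 121 starts and then for protein-coding windows. Each motif was searched on both strands of the same 300 bases, and GGGCGG, bound by SP factors, may overlap itself in reverse and the GGGG runs. A motif in bases shared by overlapping windows was counted in each of them, so the intervals are likely too narrow. GGGCGG was in 82.6% of the 121 windows and in 46.2% of protein-coding windows, ATTGG (bound by NF-Y) in 55.4% and 38.2%, and CCGGAAG in 22.3% and 11.6%. CACGTG, the E-box of MYC and USF, was in 14.9% (9.06 to 22.5) and in 7.84%, while the other classes had 8.22% (5.66 to 11.5), 9.05% (6.57 to 12.1) and 8.40% (4.27 to 14.5), intervals that overlap that of the control-only class. TATAAA was in 2.48% and 12.6%, and TGACGTCA, the full CRE, in 4.96% and 2.23%. GCGCATG was in 3.31% and 4.80%, AAGATGGC, the core of the YY1 site, in 4.96% and 3.05%, and GGGG in 97.5% and 88.2%. A match describes letters in a window and does not show that a factor was bound.

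**Figure D4:**
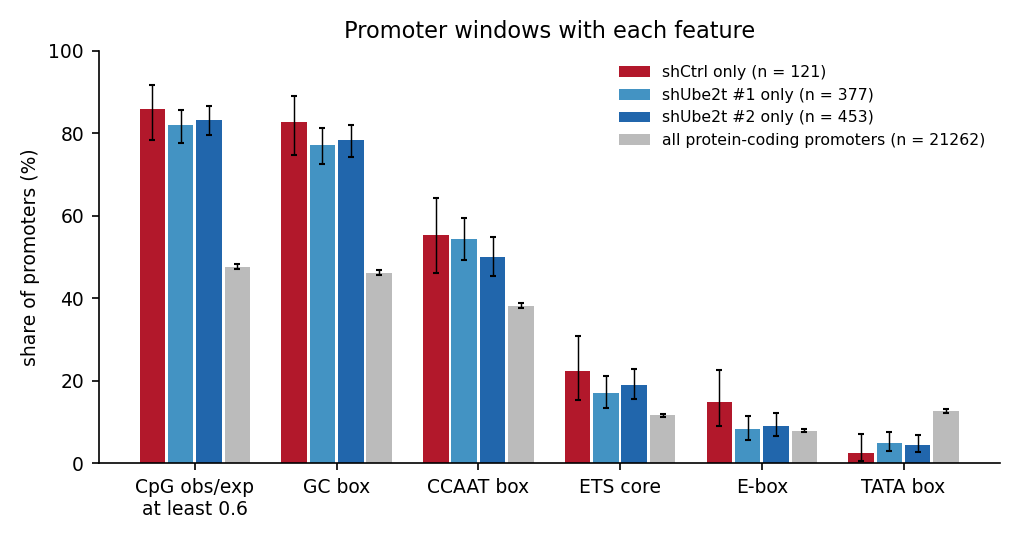
Share of 300-base promoter windows (percent) with a CpG observed over expected ratio of at least 0.6, a GC box, a CCAAT box, an ETS core, an E-box or a TATA box, spelled as in the text, for starts within 250 bp of regions called in shCtrl only (n = 121), shUbe2t #1 only (n = 377) or shUbe2t #2 only (n = 453) and for all protein-coding windows (n = 21262), with exact 95% binomial intervals as bars. The 3 called classes lie close together, and control-only windows stand at 86.0% for CpG against 47.7% of protein-coding windows. Some windows share bases, so the intervals are likely too narrow.

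The 132 regions in gene bodies lay in genes with a median length of 85440.5 bp, and 14 of 130 (10.8%) came within 1000 bp of an internal listed start. Regions covering such internal starts lay in Hif1a, which encodes the oxygen-regulated transcription factor (fold 4.26), Elavl2, which encodes a neuronal RNA-binding protein (4.52), Trim45 (5.04), Hint3 (5.00), Fer (3.96) and Sptbn1, which encodes a spectrin (3.83). These 6 were chosen after their values were seen. The strongest body region was in Cmtm6, which encodes a membrane protein that keeps PD-L1 at the cell surface, with 18 fragments over 1.66 at 12302 bp from the start. After Cmtm6 came the predicted gene Gm21154 (fold 6.07), and among genes that are not predicted Asic2, which encodes an acid-sensing sodium channel, with 18 fragments over 2.34. Intu, a planar polarity gene of ciliogenesis, Rsrc1, a splicing gene, and Flg2, a filaggrin family gene, each had 12 fragments at the lowest background of the library, 1.31, and so a shared fold of 5.62. Erc2, which encodes a protein of the presynaptic active zone, had 15 fragments over 1.86.

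The 136 regions between genes had folds of 2.27 to 7.31 with a median of 4.26. The highest were at chr11:121956480-121956689 (fold 7.31, 18 fragments over 1.60), chr3:93930460-93930727 (7.26, 16 over 1.34) and chrY:90730984-90731192 (6.93, 18 over 1.74). The knockdown interval nearest to each lay 25633, 379251 and 8682 bp away. Chromosomes X and Y together held 7 of the 424 placed regions (1.65%), against 0.516%, 1.79% and 1.97% in the other classes.

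Genes were also read by lists, with a gene counted when a region fell in it or within 1000 bp of its ends. Such a region was held by 356 of 49939 placed genes (0.713%) and by 261 of 21883 protein-coding genes (1.19%). Among lists close to the function of UBE2T, 0 of 28 in the list for Fanconi anaemia and crosslink repair were counted (exact 95% interval up to 12.3%). The counts were 0 of 34 genes for R-loop processing (up to 10.3%), 0 of 60 ubiquitin enzymes (up to 5.96%), 0 of 62 replication and cell cycle genes (up to 5.78%) and 0 of 61 chromatin regulators (up to 5.87%). At a background of 1.19%, counts of 0 in lists of this size leave the lists undistinguished from other genes.

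Other lists written by symbol held from 1 to 4 members. Splicing and RNA processing had 4 of 74 (Cdc40, Mphosph10, Hnrnpc with a fold of 5.28, and Sf3b3 with 4.74), of which the first pair stood at divergent starts already described. Cytoskeleton and motor genes had 4 of 62 (Wasf1, Myo6, Fmnl2 with 4.63, and Sptbn1). Secretory and trafficking genes had 4 of 63, among them Clcn3, Cmtm6 and Golga2. Transcription factors had 3 of 52, which were Nr6a1, Rarg, a retinoic acid receptor gene (3.75), and Tcf7l1, which encodes a repressor of WNT targets (3.37). Mitochondrial protein genes had 2 of 58, Cox18 and Mcee, and pluripotency and embryonal carcinoma genes had 1 of 30, Nr6a1. Very long genes had 2 of 30, Ptprd (4.55) and Dlg2 (5.52), and gene length was not taken into account. Housekeeping genes had 1 of 30, Tuba1a (4.75). Among families gathered by name pattern, solute carriers had 2 of 384, immunoglobulin and T cell receptor segments 1 of 555 and histone genes 0 of 70. Protocadherin genes had 13 of 70, all of them through a single region with a fold of 4.97, since their annotated spans overlap. These lists were drawn up with high-fold members already known, so the counts describe the regions and support no theme.

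Outside the lists, some control-only regions lay at genes for DNA repair, telomeres or histone handling, picked after their values were seen. Such genes were not counted as a list. No share can be set beside the 1.19% of protein-coding genes that held a region, and the names support no theme. Mdc1, which encodes the mediator that binds phosphorylated H2AX, had 15 fragments over 2.06 at its start. Inip, a subunit gene of the sensor of single-stranded DNA complex, had 12 over 1.80. Hltf, which encodes a fork remodeller, had 8 over 1.42, Asf1b, a histone chaperone gene, 10 over 1.82, and Tinf2, which encodes the shelterin protein TIN2, 10 over 2.00. Body regions lay in Slf2 (10 over 1.34) and in the telomere protein gene Pot1b (8 over 1.31). All of these pileups were within 1.5 times of the smallest callable in both knockdown libraries, and those of Hltf, Tinf2 and Pot1b were below it.

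Predicted genes and pseudogenes made up more of the control-only regions than of regions called in either knockdown library alone. The regions were given to 270 genes in total, of which 211 were protein-coding, 28 were long noncoding RNA genes and 21 were pseudogenes. Among the 288 regions given a gene, the gene was a predicted gene or pseudogene in 79 (27.4%, 22.4 to 33.0), against 9.80% (7.31 to 12.8) in shUbe2t #1 only, 8.87% (6.65 to 11.5) in shUbe2t #2 only and 17.1% (11.7 to 23.6) in all 3 lists, whose interval overlapped that of the control-only class. Counted by gene, 78 of 21795 predicted genes with Gm names (0.358%) held a control-only region, below the 0.713% of all placed genes. Rik names and other pseudogenes were not in this count, so it covers a narrower set than the share by region. Of the same 21795 genes, 89 and 102 held a region of shUbe2t #1 only and shUbe2t #2 only. Zinc finger (Zfp) genes had 7 of 416 (1.68%), of which Zfp981, Zfp993 and Zfp978 lay in a single cluster on chromosome 4. Olfactory, vomeronasal and taste receptor genes gathered by name pattern had 0 of 1843. The vomeronasal pseudogenes Vmn2r-ps17 and Vmn2r-ps95 were outside that count and were given 2 regions and 1 region. Of 495 genes with names of small nuclear, 5S or transfer RNA, 6 were held, 5 of them by 2 regions in a transfer RNA cluster on chromosome 1 (21 fragments at n-TDgtc3, n-TLcag6 and n-TGgcc12, and 24 at n-TLcag7 and n-TGgcc13), over backgrounds of 5.04 and 4.24. Genes with a microRNA or Snord-type name had 3 of 1315, Mir5627, Mir7653 and Snord116l17. These counts rest on name patterns, and the annotation also calls Gm23047 (5.76) and Gm24418 (3.89) small nucleolar RNA genes and LOC115488100 (4.26) a small nuclear RNA gene.

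Some of the control-only regions were gathered in blocks. With 4 or more regions joined at gaps of at most 500000 bp, 10 blocks held 85 of the 424 placed regions (20%) in 8204806 bp. Since the blocks were drawn on these regions, they are a description. The largest, chr4:145405002-147337177, held 21 regions with folds of 2.56 to 5.62 among 64 genes, of which 53 were predicted genes or pseudogenes, together with Rex2 and the zinc finger genes named above. The block at chr8:19698771-20997075 held 16, with 8 regions of all 3 lists and 18 no-antibody intervals inside it. The block at chr5:14921563-15637515, in the Speer cluster, held 11, with 7 regions of all 3 lists and 28 no-antibody intervals. The block at chr14:6737996-7681571 held 7 with 0 no-antibody intervals, and the highest fold there was 6.05 at Gm3727. Zfp, Vmn2r and Speer genes belong to families of similar copies, though sequence identity was not measured, and other blocks also hold unrelated genes such as Paip1 and Hmgcs1. How reads with several placements were counted is not given in the sources, so counts at such families are uncertain.

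Nearness to no-antibody signal went with these blocks. A no-antibody interval lay within 100000 bp of 82 control-only regions (18.8%, 15.2 to 22.8), against 7.68% (5.66 to 10.1) in shUbe2t #1 only, 5.89% (4.24 to 7.94) in shUbe2t #2 only and 23.3% (17.8 to 29.6) in all 3 lists. Outside the blocks the control-only share was 25 of 339 (7.37%, 4.83 to 10.7), against 6.39%, 3.69% and 13.4%. Within 100000 bp of another region of their own class lay 94 control-only regions (21.6%, 17.8 to 25.7), against 10.6%, 14.7% and 17.6%. For neighbours of the same class and location, the control-only share was 5.13% at gene ends, 19.7% in gene bodies and 20.6% between genes. At gene ends this was below shUbe2t #1 only (11.5%), shUbe2t #2 only (12.7%) and all 3 lists (8%), with overlapping intervals. In gene bodies those classes had 4.76%, 1.53% and 22.2%, and between genes 3.3%, 9.26% and 27.3%. In these latter locations the control-only share was above both knockdown-only classes and below all 3 lists. Outside the blocks, 40.7% (35.4 to 46.1) of control-only regions lay at gene ends, against 63.9%, 66.1% and 67.6%. The difference in location was thus about as large without the blocks. The part of read placement in these shares was not tested.

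**Figure D5:**
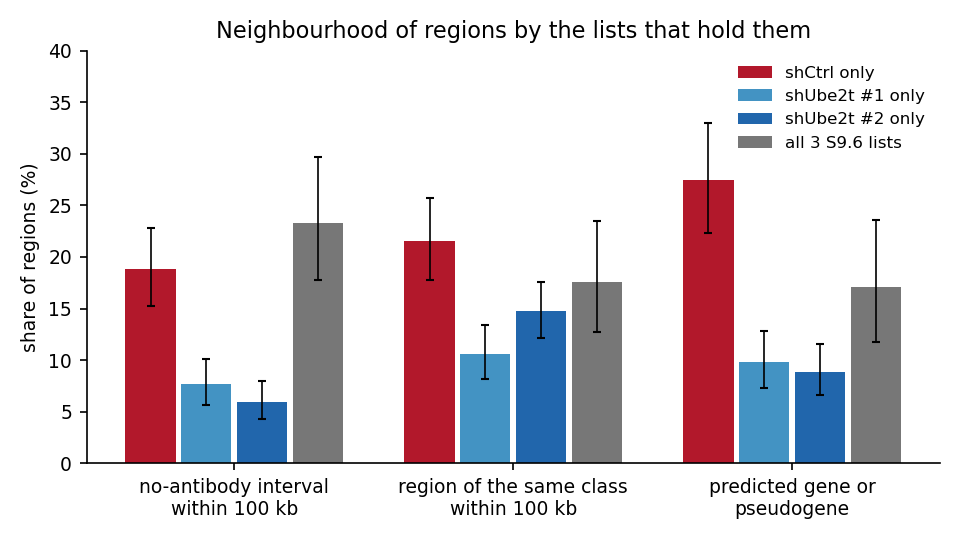
Share of regions (percent) with a no-antibody interval within 100 kb, with another region of the same class within 100 kb, and, among regions given a gene, with a predicted gene or pseudogene, for the 4 classes, with exact 95% binomial intervals as bars. The control-only bars of 18.8%, 21.6% and 27.4% stand above both knockdown-only bars in each set, and regions of all 3 lists have the highest share near no-antibody intervals.

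Of the genes given a region, 15 were given 2 or more. Gm21154, Gm8032 and Sfi1 were given 3 each. Among well-known single-copy genes, Znrf3, which encodes a ubiquitin ligase that removes WNT receptors, was given 2 (folds 4.24 and 4.05), as were Agbl4, which encodes a carboxypeptidase of tubulin (5.17 and 4.26), and Nrg2, which encodes a neuregulin (4.95 and 3.91). Elsewhere in the same gene, a knockdown interval was called in 50 of the 270 genes, and intervals of both knockdown lists in 29. Znrf3 was among these through a shUbe2t #1 interval and Agbl4 through a shUbe2t #2 interval, so at these genes the control-only label describes a position and not the whole gene. Nrg2 held no knockdown interval elsewhere.

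The edges of the rule were close on both sides. A knockdown interval lay within 200 bp of 15 control-only regions, within 1000 bp of 37 (8.49%), within 10000 bp of 82 (18.8%) and within 100000 bp of 190 (43.6%). The nearest were at Ripk2, a kinase gene of NOD signalling (2 bp), inside the overlapping genes 4933440N22Rik and Hnrnpf (12 bp), at Gm40345 and Por (35 bp), at chr8:20098190-20098494 (35 bp) and at Ing2 (44 bp). Just outside the rule were shCtrl regions that overlapped a knockdown interval by 13 bp at Tubb4b, 32 bp at Atf7, 32 bp at LOC115489104, 38 bp at Tmbim6 and 42 bp at chr16:13759744-13760041. Their folds of 4.08, 5.90, 3.81, 4.28 and 3.70 lay within the range of the regions kept. The lowest folds among the regions kept, 1.60 to 1.97, were on a background of 37.6 to 56.6 fragments. They were at 2 regions inside Sfi1, 1 of them 32 bp from the pseudogene Fau-ps2, and at 3 regions of the unplaced sequence JH584304.1.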

How the data were processed

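The deposited data are 4 peak lists on mm10, 1 per library, each called separately. Trimmomatic, MACS2 2.1.2 and Bowtie (with 0.7.12 beside its name) were used, per the submitters' processing notes, and per the labels' protocols libraries had 11 PCR cycles. The sources used here do not give duplicate handling, mapping filters or whether calling used a control. The authors' fold enrichment (a ratio) is given per summit. Deposited p and q have a −log10 scale. The peak names in the no-antibody list begin with IgG, which the labels do not mention.

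Each interval took the values of its best summit. Pileup and background were solved from the authors' fold, taken as (pileup + 1) over (background + 1), and from p as a Poisson tail, and at least 97.1% of pileups in each list came out whole within 0.05. The smallest callable pileup used the lowest −log10 p of the library concerned and its own depth, taken from the lowest background. The number of fragments per library is not known. PCR copies, if kept, would raise pileups, and the Poisson bounds leave this out.

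Genes came from a RefSeq table (GRCm38.p6, 49939 placed genes) with no strand or exons, so exons, introns and UTRs were not told apart and both ends of a gene counted. Gene starts with strand came from 32851 promoter windows of 27025 genes on 20 chromosomes, and regions on other chromosomes were left out of start distances. Each region was assigned 1 gene, the closest by gene end up to 1000 bp away and failing that the longest one around it, with predicted genes (Gm and Rik names) after others. Named genes are the 20 highest folds at other genes and 5 at predicted ones, members of the gene lists, the 5 highest folds between genes, genes with 2 or more regions, and the 5 nearest to either edge of the rule, with exceptions marked. Some of these are not reported here.

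The regions and gene lists were chosen with earlier results of these data known, and the name patterns for transfer RNA and protocadherin genes were widened after the data were seen. Shares have exact (Clopper-Pearson) 95% intervals. The scripts (Python 3.11.15, SciPy 1.17.1) were tested on simulated data. Alternatives were stricter q, equal list lengths, wider merging, other no-antibody filters and other gene-end rules.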

Additional observations from a re-analysis of the deposited data

How the results depend on the processing

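With 1 library per condition, no library could be left out. No paired analysis was possible because each condition has 1 library. A −log10 q of at least 2 raised the median fold to 4.64, whether asked of all 3 S9.6 lists or of shCtrl alone. A −log10 q of at least 5 in all 3 lists gave 107 regions, given to 71 genes, with a median fold of 5.70 and a median width of 250 bp. Only 61 of the 436 regions reach this value, and the others entered because weaker knockdown intervals merged with them were dropped by the same filter. Merging across 1000 bp left 11.3% of regions within 10000 bp of a knockdown interval, since it removes the nearest. The gene-end share was 30.7% at 500 bp, 43.9% at 2000 bp, where the gene-body share was 26.2%, and 27.6% with protein-coding genes only. Chosen after seeing the data, the 38 placed regions over 1.5 times the smallest callable pileup in both knockdown libraries had a gene-end share of 44.7%. The other 59 values computed under alternatives stayed within the interval of the main value or within 1.5 times of a count. At 500 bp and at 2000 bp the gene-end share of control-only regions stayed below those of shUbe2t #1 only (58.0% and 67.8%) and shUbe2t #2 only (59.2% and 71.4%).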
